A study of Mus musculus with 30 samples.

Results

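Kupffer cells are the macrophages that live in the sinusoids of the liver, and in whole liver RNA they are read through the transcripts that mark them. The markers followed here were 10 genes: Adgre1, Cd68, Clec4f, Vsig4, Folr2, Marco, Cd5l, C1qa, C1qb and C1qc. They were chosen by name, as every non-control probe that the array files give one of these gene names, with Emr1 taken as the older name of Adgre1. The rule found 11 probes, 2 of them for Adgre1, among 41174 probes and 28786 gene names on the array. All 11 probes were marked well above background on 30 of 30 arrays, with 0 saturated arrays, so all 10 genes passed the filter on dim probes.

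The arrays measured whole liver from 30 mice, 1 mouse per array, in 6 groups of 5. The DBA/2 mice (D2) and the C57BL/6 mice (B6) are inbred strains, and each strain was fed 3 diets. The deficient diet held under 3 mg of iron per kg, the balanced diet 200 mg per kg and the enriched diet 8.3 g per kg. The labels give no transgene, deletion or drug for any group, each mouse carries its own animal code, while neither sex, age nor feeding time is stated. Levels are log2 of the quantile-normalized fluorescence signal, so a difference of 1 is a doubling of signal, and a level is compared only with levels of the same probe. A difference is called at a Benjamini-Hochberg adjusted p under 0.05 over the 21087 genes tested, from 1 limma fit of the 6 group means.

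Kupffer cells take up aged red cells, return the iron to the blood through ferroportin, and clear bacteria and complement-coated particles. Adgre1 encodes F4/80, the adhesion receptor long used to mark mouse macrophages, and Cd68 encodes macrosialin, a lysosomal membrane protein of macrophages in general. Clec4f is a C-type lectin which in mice marks Kupffer cells, and Vsig4 encodes CRIg, a receptor for C3 fragments. Folr2 encodes folate receptor beta and Marco a class A scavenger receptor. Cd5l encodes AIM, a protein that tissue macrophages secrete, and C1qa, C1qb and C1qc encode the chains of C1q, which starts the classical complement pathway and is made largely by macrophages.

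The RefSeq table of start-site windows (300 bases each, GRCm38.p6) held 9 windows for 8 of the 10 genes, with 2 for Folr2. Those below are shown because Folr2 carries the widest strain gap, C1qb and C1qc lie beside each other on chromosome 4, and Cd5l and Clec4f varied together from mouse to mouse. Capitals mark GAGGAA or its reverse complement TTCCTC, a core that PU.1 and other ETS factors bind, and TGCTGA or its reverse complement TCAGCA, a half-site that MAF factors bind. Each sequence runs 5′ to 3′ on the gene's strand.
Folr2 first window, chr7:101857141-101857440, minus strand: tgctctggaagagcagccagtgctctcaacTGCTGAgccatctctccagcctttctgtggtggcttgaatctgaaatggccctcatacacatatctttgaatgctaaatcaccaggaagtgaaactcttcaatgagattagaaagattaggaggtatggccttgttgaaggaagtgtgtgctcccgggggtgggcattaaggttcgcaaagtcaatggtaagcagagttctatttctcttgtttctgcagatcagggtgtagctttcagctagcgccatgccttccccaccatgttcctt
Folr2 second window, chr7:101845282-101845581, minus strand: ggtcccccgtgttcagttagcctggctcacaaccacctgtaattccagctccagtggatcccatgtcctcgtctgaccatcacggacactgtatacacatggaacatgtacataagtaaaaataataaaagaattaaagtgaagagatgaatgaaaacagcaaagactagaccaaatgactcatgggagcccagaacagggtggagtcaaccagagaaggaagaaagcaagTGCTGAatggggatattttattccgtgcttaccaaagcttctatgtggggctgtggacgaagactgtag
C1qb, chr4:136886151-136886450, minus strand: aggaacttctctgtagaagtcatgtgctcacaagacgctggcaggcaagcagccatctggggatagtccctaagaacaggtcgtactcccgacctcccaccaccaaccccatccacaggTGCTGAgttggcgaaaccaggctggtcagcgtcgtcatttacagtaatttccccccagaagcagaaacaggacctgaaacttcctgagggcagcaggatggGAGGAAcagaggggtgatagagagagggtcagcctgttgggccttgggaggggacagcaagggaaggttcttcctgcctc
C1qc, chr4:136892865-136893164, minus strand: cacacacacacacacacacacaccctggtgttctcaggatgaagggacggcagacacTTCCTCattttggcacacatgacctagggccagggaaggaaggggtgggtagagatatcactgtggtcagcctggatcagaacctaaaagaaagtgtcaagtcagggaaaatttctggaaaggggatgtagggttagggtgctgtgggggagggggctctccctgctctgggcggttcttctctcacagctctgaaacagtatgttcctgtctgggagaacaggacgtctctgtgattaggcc
Cd5l, chr3:87357631-87357930, plus strand: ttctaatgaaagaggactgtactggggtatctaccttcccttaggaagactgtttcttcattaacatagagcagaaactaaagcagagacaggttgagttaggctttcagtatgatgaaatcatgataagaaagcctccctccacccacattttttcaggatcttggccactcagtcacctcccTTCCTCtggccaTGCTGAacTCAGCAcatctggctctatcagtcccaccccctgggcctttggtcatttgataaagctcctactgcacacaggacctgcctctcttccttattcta
Clec4f, chr6:83656067-83656366, minus strand: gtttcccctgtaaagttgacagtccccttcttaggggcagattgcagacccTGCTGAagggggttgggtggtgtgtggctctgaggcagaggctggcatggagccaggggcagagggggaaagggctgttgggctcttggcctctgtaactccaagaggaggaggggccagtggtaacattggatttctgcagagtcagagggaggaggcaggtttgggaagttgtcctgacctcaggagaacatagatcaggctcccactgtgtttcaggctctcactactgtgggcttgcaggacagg

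Over all 32851 windows of the table, 28.3% held GAGGAA on either strand and 19.5% held TGCTGA. Of the 9 windows of the markers, 6 held GAGGAA and 6 held TGCTGA, with no overlap between the letters of the motifs. Both Folr2 windows held TGCTGA and neither held GAGGAA, while the C1qc window held GAGGAA alone and the Clec4f window TGCTGA alone. A match only says that these letters stand in the window.

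The question of the strain comparison was whether the markers differ between D2 and B6 livers. All 10 were lower in D2 livers when the diets were averaged, against a background of 24.2% of all genes called lower and 50.1% called in either direction. The median difference of the 10 was -0.74, against -0.01 over all genes tested. The smallest differences were those of Cd68 and C1qa, both -0.32 or 1.25-fold lower, and the widest was that of Folr2 at -4.74. Fewer Kupffer cells and less of these RNAs per cell cannot be told apart in whole liver. Whether D2 alleles differ from the array's probes at these genes was not tested.

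**Figure D1:**
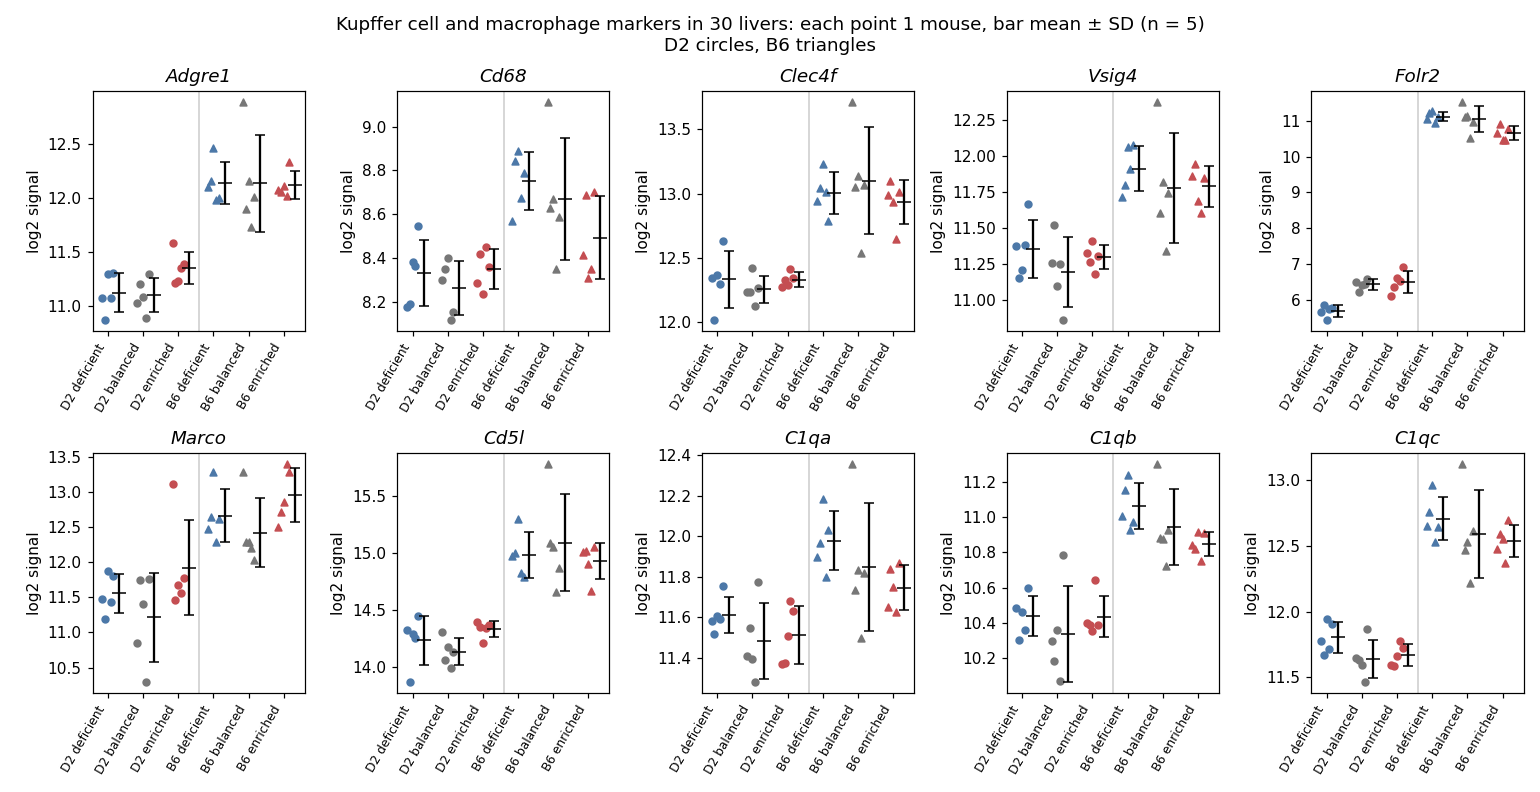
Log2 signal of the 10 markers in each of the 30 livers, 1 panel per gene with its own axis. Points are mice (circles D2, triangles B6), coloured by diet, and bars are the mean ± SD of 5 mice. The 3 B6 means lie above the 3 D2 means in every panel, and the Folr2 axis alone spans a gap of over 3 units.

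Folr2 read 5.65, 5.84, 5.43, 5.75 and 5.78 in the D2 mice on the deficient diet, against 11.04, 11.22, 11.28, 10.95 and 11.10 in the B6 mice. On the balanced diet it read 6.51, 6.20, 6.40, 6.44 and 6.59 in D2, against 11.53, 11.11, 11.13, 10.52 and 10.97 in B6. On the enriched diet it read 6.11, 6.35, 6.61, 6.52 and 6.92 in D2, against 10.66, 10.92, 10.47, 10.45 and 10.78 in B6. The highest D2 array, at 6.92, stood 3.53 below the lowest B6 array, at 10.45, so the strains were far apart on every diet. The difference of -4.74 (SE 0.0841) is 26.6-fold lower in D2, with a limma adjusted p of 1.6e-25. With normexp background correction Folr2 differed by -3.78, and over the 43 settings run its difference lay between -4.93 and -3.78. In the fit as reported it ranked 6 of 21087 genes counted from the most negative difference. By diet the fold was 43 on the deficient, 24.7 on the balanced and 17.8 on the enriched diet.

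Among the surface proteins that define macrophages, Adgre1 was 1.91-fold lower in D2. Its 15 D2 arrays ran from 10.87 through a median of 11.22 to 11.59, and its 15 B6 arrays from 11.73 through 12.07 to 12.89. The strains did not overlap, and the difference was -0.94 (SE 0.0846, limma adjusted p 3.68e-10). The second Adgre1 probe gave -0.92 (SE 0.131, limma adjusted p 1.11e-06), but its arrays overlapped, from 5.12 to 6.56 in D2 and from 6.28 to 8.16 in B6. On the enriched diet this second probe did not pass (-0.47, limma adjusted p 0.116).

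Clec4f ran from 12.02 through 12.30 to 12.63 in D2, against 12.54 through 13.01 to 13.71 in B6. All but 1 of the 15 D2 arrays lay under the lowest B6 array, and the difference was -0.71 (SE 0.0796, limma adjusted p 2.31e-08). Vsig4 ran from 10.86 through 11.26 to 11.66 in D2, against 11.34 through 11.81 to 12.37 in B6. Here 10 of 15 D2 arrays lay under the lowest B6 array, with a difference of -0.54 (SE 0.0802). Cd68, the marker shared by macrophages of all tissues, ran from 8.12 through 8.35 to 8.55 in D2, against 8.31 through 8.67 to 9.11 in B6. Its strains overlapped widely, with 7 of 15 D2 arrays below the lowest B6 array, and its difference was -0.32 (SE 0.0628, limma adjusted p 9.42e-05).

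Marco, the scavenger receptor, had the widest scatter of the 10 genes. It ran from 10.30 through 11.57 to 13.12 in D2, against 12.04 through 12.61 to 13.40 in B6. The D2 value of 13.12 came from mouse 1 on the enriched diet, and the other 14 D2 arrays all lay under the lowest B6 array. The difference was -1.11 (SE 0.174), 2.16-fold lower in D2, with a limma adjusted p of 5e-06.

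Of the secreted products, Cd5l ran from 13.87 to 14.44 in D2, against 14.66 to 15.79 in B6, with no overlap. Its difference was -0.77 (SE 0.0823, limma adjusted p 8.92e-09). The C1q chains fell by unequal amounts, although their genes are neighbours. C1qc ran from 11.47 through 11.67 to 11.95 in D2, against 12.22 through 12.59 to 13.13 in B6, with no overlap and a difference of -0.90 (SE 0.0660). C1qb differed by -0.55 (SE 0.0624), and 14 of its 15 D2 arrays lay under the lowest B6 array, at 10.72. C1qa differed by -0.32 (SE 0.0664, limma adjusted p 0.000183), and only 5 of its D2 arrays lay under the lowest B6 array, at 11.50. The difference between the chains was not tested.

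In all, 4 of the 10 markers (Adgre1, C1qc, Cd5l and Folr2) had every D2 array below every B6 array, a pattern that 3.21% of all genes showed. By diet, 10 of 10 were lower in D2 on the deficient diet, where 13.6% of all genes were lower. On the balanced diet 10 of 10 were lower, where 12.9% of all genes were. On the enriched diet 8 of 10 were lower, where 17.3% of all genes were. Among the arrays of single scan days, which hold fewer mice, the counts were as low as 4 on the deficient, 0 on the balanced and 1 on the enriched diet. The exceptions on the enriched diet were C1qa at -0.23 (95% interval -0.47 to 0.00, limma adjusted p 0.119) and Cd68 at -0.14 (-0.37 to 0.08, limma adjusted p 0.333). Whether the strain gap depended on iron was tested by the interactions of strain and diet described further on.

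**Figure D2:**
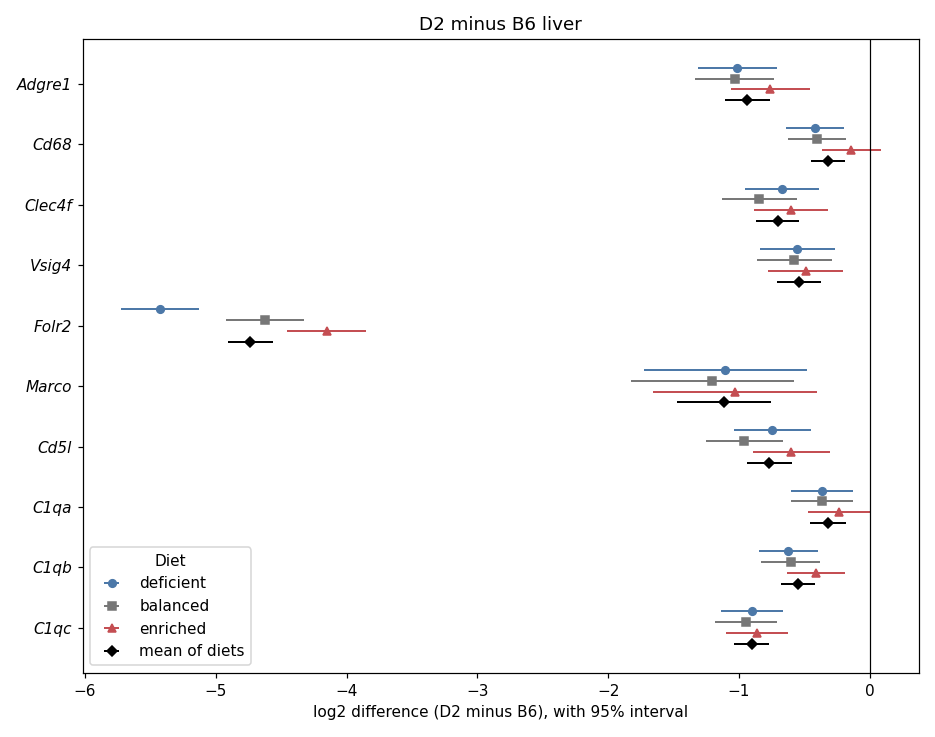
Log2 difference, D2 minus B6, of each marker on the deficient, balanced and enriched diets and averaged over diets, with 95% intervals. All 40 points lie left of 0, Folr2 lies between -5.43 and -4.15, and the intervals of Cd68 and C1qa on the enriched diet reach 0.

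The arrays were scanned on 3 days, with 4, 6 and 5 D2 arrays and 1, 5 and 9 B6 arrays on them, and lay on 10 slides. With scan day as a block the differences of the 10 markers ran from -4.81 for Folr2 to -0.34 for C1qa and Cd68, and all 10 were called. Among the arrays of scan day 2 all 10 were called, from -4.93 for Folr2 to -0.52 for Cd68. Among those of scan day 3 Marco was not (-0.67, limma adjusted p 0.0682), while C1qa passed narrowly (-0.20, limma adjusted p 0.0457). Day 1 held 1 B6 array. On the 8 slides that carried both strains, D2 was lower on 8 of 8 for every marker but Marco, which was lower on 7 of 8 and 0.85 higher on the slide that carried D2 enriched mouse 1.

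A wider list of 34 further Kupffer cell and macrophage genes was tested beside the 10. In D2 livers 22 were lower and 6 were higher, with a median difference of -0.38, beside 24.2% and 25.9% of all genes. Fcna, ficolin A of macrophages, differed by -0.99 and its strains did not overlap, with 11.14 to 11.56 in D2 against 12.00 to 12.53 in B6. Nr1h3, the liver X receptor alpha needed for Kupffer cell identity, differed by -0.53, Il18bp, the interleukin-18 binding protein, by -1.15, and Clec1b, a C-type lectin, by -0.65. These genes were read in whole liver, so the cells that carried their differences were not separated. Timd4, which binds phosphatidylserine on dying cells, differed by -0.47, and Cd163, the haemoglobin-haptoglobin receptor, by -0.40.

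The 6 that were higher in D2 are named after their values were seen. They were Siglec1 (1.31), Cd207 (0.92), Mpeg1 (0.54), Spi1 (0.54), Slc40a1 (0.31) and Msr1 (0.28). Siglec1 encodes sialoadhesin, Cd207 langerin, Spi1 the factor PU.1, Slc40a1 ferroportin and Msr1 another class A scavenger receptor. Spi1 was dim, averaging 4.64 in D2 and 4.11 in B6, where the lowest array stood at the signal floor of 3.80. A second probe for Siglec1 gave 0.19 and did not pass (limma adjusted p 0.460), so the higher level of Siglec1 rests on 1 of its probes.

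Markers of the other cells in a liver sample were measured in the same way, beside 24.2% of all genes lower and 25.9% higher in D2. Of 12 sinusoidal endothelial genes, 10 were lower in D2 and 0 higher, with a median of -0.25. Lyve1 led at -2.24, with Oit3 at -0.49 and Cdh5 at -0.42. Second probes for Stab1 (0.08, limma adjusted p 0.345) and Clec4g (-0.02, limma adjusted p 0.894) did not pass. Those for Lyve1 (-2.23), Oit3 (-0.50), Cdh5 (-0.38) and Tek (-0.39) were lower in D2. The summed signal of the 12 genes ran from 33051 to 38781 in D2 and from 36750 to 50345 in B6. The part of sinusoidal cells as a whole in the marker result was not tested. The summed signal of the 10 Kupffer markers ran from 33066 to 48456 in D2 and from 53670 to 113077 in B6, without overlap. Of 7 hepatocyte genes 3 were higher and 1 lower (Apoa1 at 0.35 and Fgb at -0.22 among them). Their summed signal overlapped almost wholly, with 1530320 to 1786230 in D2 and 1527590 to 1811890 in B6. Sums of this kind add the signals of different probes, so the brightest genes of a list weigh most. Among the Kupffer markers the brightest was Cd5l, whose strains did not overlap. Among the hepatocyte genes it was Alb, whose highest array read 18.999 in both strains. The highest D2 array of C3 read the same value. Quantile normalization gives all arrays the same spread of values, which holds the brightest genes near each other. The overlap of the hepatocyte sums therefore cannot show whether hepatocyte RNA was equal in the strains. The sums were not tested.

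Of 12 genes of monocytes and recruited macrophages, 4 were lower and 3 higher in D2, shares near the 24.2% lower and 25.9% higher of all genes. Their summed signal ran from 5453 to 7536 in D2 and from 6702 to 13249 in B6. The lower ones included Trem2 (-1.33), a lipid receptor of recruited macrophages, and Spp1 (-0.97), osteopontin, and the higher ones Ccl2 (0.64), a monocyte-attracting chemokine. The same shares of all genes apply to the lists that follow. Of 7 neutrophil genes 1 was higher (Camp, 0.75) and 0 lower. Camp averaged 3.96 in B6, near the signal floor of 3.80. Of 12 lymphocyte genes 3 were lower and 2 higher, with Klrb1c, the NK1.1 antigen of natural killer cells, lowest at -1.59. In D2, Klrb1c averaged 4.54, with its lowest array at the floor. Of 6 dendritic cell genes 2 were lower and 0 higher (Itgae -0.45, Flt3 -0.40). Of 10 stellate cell genes 3 were higher and 1 lower, the lower one being Col1a1 (-1.10). The D2 and B6 summed signals of the neutrophil genes overlapped, at 483 to 2041 in D2 and 709 to 2137 in B6.

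Most other complement genes tested went the other way from the C1q chains. Of 12 tested, most of them made by hepatocytes, 10 were higher in D2 and 1 was lower, with a median of 0.18. Over all genes, 25.9% were higher and 24.2% lower. Besides classical pathway genes, the 12 included regulators and Masp1 and Masp2, proteases of the lectin pathway. C4b was higher by 0.87, Masp1 by 0.68 and C2 by 0.47, while Masp2 stood at -0.13. Of 11 other scavenger receptor genes 6 were lower and 3 higher, among them Scara3 at -1.42 and Scara5 at 1.93. The B6 arrays of Scara5 ran from the signal floor of 3.80 to 9.86. Of 12 macrophage growth and identity factors 6 were lower and 2 higher in D2. Csf1, the main growth factor of macrophages, was higher by 0.83, whereas Il34, another ligand of the same receptor, stood at -0.47 and Id3, a regulator of Kupffer cell identity, at -1.11. With the diets pooled, the Id3 arrays ran from 9.93 to 11.93 in D2 and from 10.30 to 14.28 in B6.

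**Figure D3:**
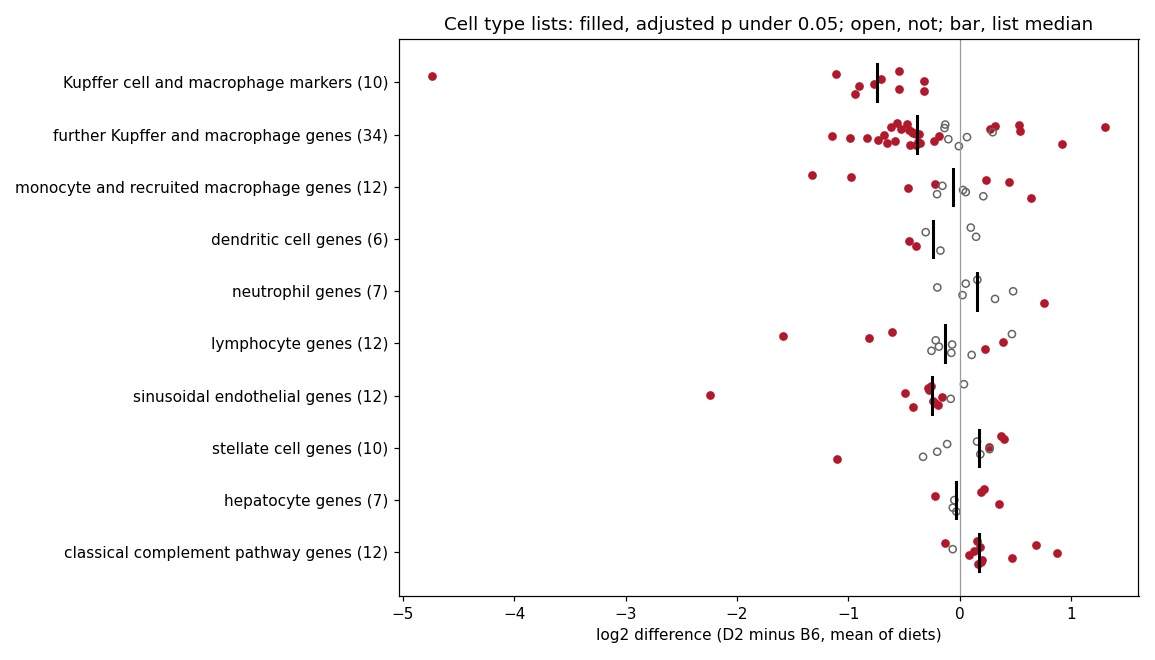
Log2 difference, D2 minus B6 averaged over diets, of every tested gene in the 10 marker lists shown, with the number tested in brackets. Filled points passed at an adjusted p under 0.05, open points did not, and bars are list medians. The Kupffer markers lie wholly left of 0 with a median of -0.74. The complement genes, which include Masp1 and Masp2 of the lectin pathway, lie mostly right of 0.

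The diets were compared to see whether iron supply moved the markers. Folr2 was the 1 marker called against the balanced diet, lower on the deficient diet in D2 livers and on the average of the strains. In D2 livers on the deficient diet Folr2 averaged 5.69 ± 0.16, against 6.43 ± 0.14 on the balanced diet (SD, n = 5 each). The 5 values on the deficient diet all lay below the lowest of the 10 other D2 livers, at 6.11. The difference was -0.74 (SE 0.146), 1.67-fold lower, with a limma adjusted p of 0.00424. The call was lost with normexp background correction (-0.35, limma adjusted p 0.0849) and among the arrays of scan day 1 (-0.60) or 2 (-0.60), and held among those of scan day 3 (-1.05, limma adjusted p 0.0277). In the fit as reported it was the 1 marker called of 10, where 2.90% of all genes were lower and 4.69% changed in either direction. In B6 livers Folr2 differed by 0.06 between the deficient and the balanced diet (95% interval -0.24 to 0.37, limma adjusted p 0.917), and 0 of 10 markers were called in the limma fit, where 1.79% of all genes were, with 0 at an unadjusted p under 0.05.

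The strain difference of the deficiency response of Folr2 was -0.80 (SE 0.206) and did not pass over all genes (limma adjusted p 0.335), where 0.0190% of genes did. So the response to deficiency was not shown to differ between the strains in that test. Averaged over strains, Folr2 differed by -0.34 on the deficient diet (limma adjusted p 0.0413), the 1 call of 10 markers where 8.11% of all genes were called and 4.22% were lower. That call ended under other settings and when single mice were left out. Among 30 fits that each left out 1 mouse it was called in 17. Without B6 balanced mouse 1 it was -0.28 (limma adjusted p 0.0777), and in the same fit C1qc was called higher, by 0.21 (limma adjusted p 0.0475).

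On the enriched diet Folr2 averaged 6.50 ± 0.30 in D2, close to its balanced mean, and the difference of 0.07 had a 95% interval of -0.23 to 0.38. In B6 it averaged 10.66 ± 0.20 on the enriched and 11.05 ± 0.36 on the balanced diet, a difference of -0.40 that did not pass (limma adjusted p 0.119). The comparison of the enriched with the deficient diet within each strain was added after the values were seen. In D2, Folr2 was 0.81 higher on the enriched diet (SE 0.146, limma adjusted p 0.00159), the 1 call of 10 markers where 3.49% of genes were called. That call too was lost with normexp (0.39, limma adjusted p 0.0540) and among the arrays of scan day 1 (0.88), 2 (0.85) or 3 (0.69) alone. In B6 it was -0.46 on the enriched diet against the deficient (limma adjusted p 0.0626), and 0 of 10 markers were called in limma where 5.51% of genes were, with 2 at an unadjusted p under 0.05, Folr2 and Cd68. In B6 Folr2 was called lower under 75th percentile scaling (-0.45, limma adjusted p 0.0467), with normexp (-0.45, limma adjusted p 0.0165) and in 5 of 30 fits that left out 1 mouse. The difference between these strain responses was 1.27 (SE 0.206, limma adjusted p 0.00261), where 0.621% of genes were called. It was 1.04 among the arrays of scan day 2 and 1.23 among those of day 3, where it did not pass (limma adjusted p 0.505 and 0.531).

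Ordered by level, Folr2 was lowest in D2 deficient livers, then D2 balanced, D2 enriched, B6 enriched, B6 balanced and B6 deficient livers. Of neighbours in that order within a strain, D2 deficient and D2 balanced differed, while D2 balanced and D2 enriched, B6 enriched and B6 balanced, and B6 balanced and B6 deficient were not told apart by the fit. For the other 9 markers no pair of diets within a strain was told apart. Their order placed the 3 D2 groups under the 3 B6 groups for each gene.

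For enriched against balanced, 0 of 10 markers were called in D2, in B6 or on the strain average by limma, where 0.0901%, 5.90% and 2.24% of all genes were. At an unadjusted p under 0.05 there was 1 marker in each of these comparisons. The methods' t-test within strains found 2 in D2 and 0 in B6 at its unadjusted threshold, and 0 in either after adjustment. In D2 livers all 10 differences were positive, from 0.03 to 0.71, none passing the test. In B6 livers 8 of 10 were negative. These signs depended on single mice. In some fits that left out 1 mouse, Adgre1 (up to 0.17), C1qa, C1qc and Cd5l turned positive in B6. C1qb, Cd68, Clec4f and Folr2 stayed negative there. In D2, C1qa, C1qc and Folr2 (down to -0.03) turned negative in some. The markers also varied together, so their signs are not independent. The enriched comparisons share their balanced livers with those of the deficient diet. Averaged over strains, the enriched diet against the deficient gave 0 of 10 calls in limma and 0 at an unadjusted p under 0.05, where 8.89% of genes were called. The interaction of strain with enrichment gave 0 of 10 in limma, where 1.11% of genes were called, with Folr2 the 1 marker at an unadjusted p under 0.05.

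Marco showed the widest diet difference apart from Folr2, without passing. In D2 it read 13.12, 11.47, 11.68, 11.57 and 11.78 on the enriched diet, against 10.85, 11.75, 11.41, 10.30 and 11.77 on the balanced diet. In B6 it read 12.50, 12.72, 12.86, 13.40 and 13.29 on the enriched diet, against 13.29, 12.29, 12.29, 12.20 and 12.04 on the balanced diet. The diets overlapped in both strains, and 1 mouse in each strain stood far from its group. The strain average was 0.62 (SE 0.214, 95% interval 0.18 to 1.06, limma adjusted p 0.139). For the other 8 markers, excluding Folr2 and Marco, the 95% intervals of the strain-averaged enrichment and deficiency differences all lay between -0.25 and 0.35.

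**Figure D4:**
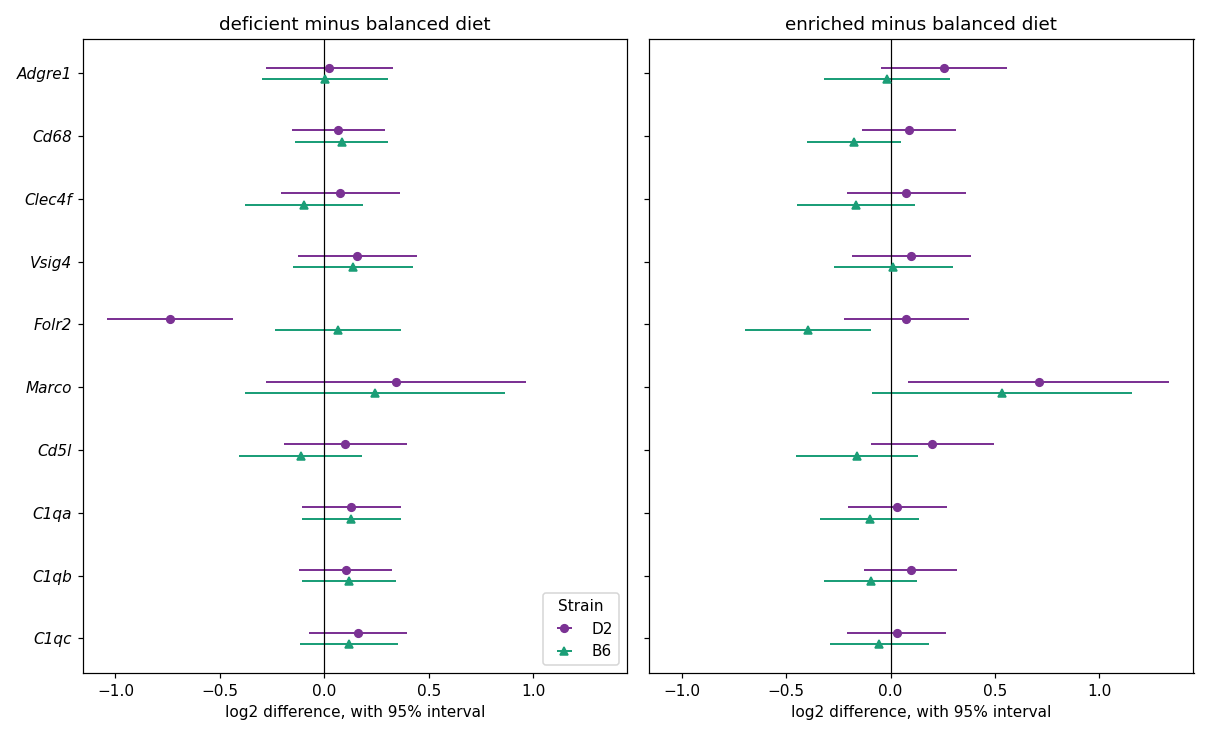
Log2 difference of each marker on the deficient (left) and the enriched diet (right) against the balanced diet, within D2 and within B6, with 95% intervals. Folr2 in D2 on the deficient diet, at -0.74, is the 1 point called, and the widest intervals are those of Marco.

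Some further macrophage genes did pass in the diet comparisons. On the strain average, 3 of 34 were higher on the enriched than on the balanced diet and 0 lower, where 1.21% of all genes were higher. They were Slc40a1, ferroportin, at 0.51, Mrc1, the mannose receptor, at 0.27 and Clec1b at 0.26. On the deficient diet 1 was higher, Mrc1 at 0.20, where 3.90% of all genes were. There 2 were lower, Cd207 at -0.40 and Slc40a1 at -0.30, where 4.22% of all genes were. Slc40a1 and Mrc1 are not restricted to macrophages, since hepatocytes and sinusoidal endothelium also express them. Id3, which is used here as an identity factor but is expressed in many liver cells, was 1.47 higher on the enriched diet. Within strains, enriched against balanced called 1 of the 12 growth and identity factors in B6 and 0 of 12 in D2. Over all genes 5.90% were called in B6 and 0.0901% in D2.

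The markers also varied together from mouse to mouse inside the groups. With each group mean subtracted, the median Pearson correlation over the 45 pairs of markers was 0.67 across 30 arrays, from -0.02 to 0.94. Genes read on the same array share its RNA preparation and scan, so this is a description. Without B6 balanced mouse 1 the median was 0.50 and the range -0.25 to 0.89. C1qa and C1qc were the closest pair at 0.94, followed by Cd5l and Clec4f at 0.91, and the lowest medians with the other markers were those of Marco, Folr2 and Vsig4, at 0.46, 0.55 and 0.55. Without that mouse these were 0.27 for Marco, 0.36 for Folr2 and 0.26 for Vsig4.

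B6 balanced mouse 1 lay above its group mean for all 10 markers, by a median of 0.57 and at most 0.87. It also lay above the mean for 33 of 34 further macrophage genes (median 0.48), 7 of 7 neutrophil genes (1.17) and 8 of 12 lymphocyte genes (0.39), against 1 of 7 hepatocyte genes (-0.07) and 6 of 12 endothelial genes (0.02). B6 deficient mouse 3, B6 enriched mouse 5 and D2 deficient mouse 5 were also above their means for 10 of 10 markers, by medians of 0.22, 0.13 and 0.20. B6 balanced mouse 4 and B6 deficient mouse 1 were above for 0 of 10. Without B6 balanced mouse 1 and D2 enriched mouse 1, an alternative chosen after seeing the data, all 10 markers were still lower in D2, from -4.67 for Folr2 to -0.27 for C1qa.

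**Figure D5:**
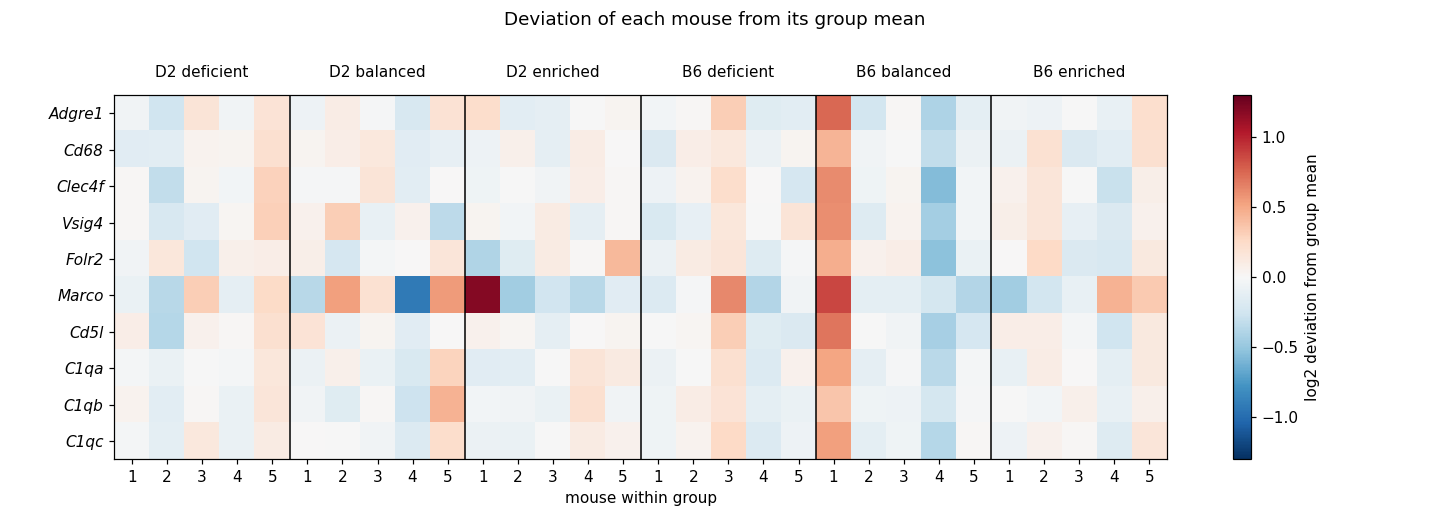
Deviation of each mouse from its group mean (log2, colour) for the 10 markers in rows and the 30 mice in columns, grouped by strain and diet. B6 balanced mouse 1 is red in every row, B6 balanced mouse 4 blue in every row, and D2 enriched mouse 1 stands out for Marco alone, at 1.20.

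The genes whose pattern was most like each marker, were found by the same correlation over 30 arrays. Adgre1 was followed most closely by Cfp, properdin (0.91), C1qc (0.90) and Itgal, an integrin chain of leukocytes (0.89). C1qa was followed by C1qc (0.94), Hcls1 (0.91) and Pld4 (0.87), C1qb by C1qc (0.84), Lgals3 (0.83) and Cfp (0.82), and C1qc by C1qa (0.94), Adgre1 (0.90) and Cfp (0.88). Cd5l was nearest to Clec4f (0.91), Ear3 (0.87) and Ly86 (0.87), and Clec4f to Cd5l (0.91), Ly86 (0.90) and Selplg (0.87). Vsig4 was nearest to Ear10 (0.88), Arhgap30 (0.87) and Kctd12 (0.87). Genes near Cd68 included Apbb1ip (0.92) and Ptprc, the leukocyte antigen CD45 (0.88). The nearest genes of Marco and Folr2 were all outside the marker set. They were Ebi3 (0.84), Cd300e (0.81) and Treml4 (0.76) for Marco, and included Itgb7 (0.81) and Enkd1 (0.80) for Folr2.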

How the data were processed

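Liver RNA of 30 mice was hybridised to 1-colour arrays. The deposited files hold fluorescence intensity per spot as the authors' scanner software wrote it (Feature Extraction 9.1.3.1 per the file headers, 9.5.1 per the labels), background-subtracted and not normalized between arrays. The deposited value table holds the same intensity on a linear scale, with column medians of 61.2 to 122. It was used further only for the setting without normalization between arrays.

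Control and outlier spots were left out, spots of a probe averaged (41174 probes), signals quantile-normalized as the series' design text states, floored at 13.9 and log2 transformed. Probes marked well above background on at least 3 arrays of each strain were kept (30006), 62.5% to 78.4% of probes being marked per array, and the brightest probe stood for each of 21087 genes. This brightest-probe rule applies to Adgre1, whose second probe is given separately. The number of mice limits the precision. The fit used limma 3.58.1 in R 4.3.3, in which all groups share 1 estimate of spread, after a test on simulated data, and figures used matplotlib 3.10.9 in Python 3.11.15. The authors' R/MAANOVA was not run. Names came from RefSeq (GRCm38.p6), with 22951 probes named by accession, 6659 by symbol and 11564 by the array file. The array files name no genome build.

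Mouse numbers follow accession order and pair nothing. The members and the gene lists were chosen with earlier results of these data known. Text names all 10 markers, up to 4 passing genes per list by smallest adjusted p, and the 3 genes most correlated with each marker, of which some for Cd68 and Folr2 are not reported here; Timd4, Cd163, Id3 and Il34 in the strain comparison, Masp2 and the macrophage genes higher in D2 were named after their values were seen. List genes too dim to test or unmatched were left out. Alternatives covered normalization, background correction, filters, probe rule, slide, scan day, single mice and moderation.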

Additional observations from a re-analysis of the deposited data

Results flagged for a closer look

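Adgre1 in B6 enriched mouse 5 stood at 12.34, above the other 4 mice of its group, the nearest of them at 12.11. C1qb in D2 enriched mouse 4 stood at 10.64, likewise above its group. Marco in B6 balanced mouse 1 stood at 13.29, and Marco in D2 enriched mouse 1 at 13.12, each the high mouse of its group. These 4 were flagged among 60 combinations of gene and group by the gap to the nearest mouse as a share of the group's range. A small gap can thus be flagged in a group of narrow range, and chance flags about 1 in 20 groups. The last one is the 1 D2 value of Marco that overlapped the B6 range.

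Folr2 was flagged because its difference between the enriched and the deficient diet was not the same in the strains. It was 0.81 in D2 and -0.46 in B6, and the difference of 1.27 passed over all genes (limma adjusted p 0.00261). It was called in 30 of 30 fits that left out 1 mouse, where it ran from 1.17 to 1.37, but not among the arrays of scan day 2 (1.04, limma adjusted p 0.505) or day 3 (1.23, limma adjusted p 0.531) alone.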

How the results depend on the processing

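No paired analysis was possible because mouse numbers follow accession order and pair no samples. The D2 against B6 difference averaged over diets was negative for all 10 markers under 43 settings and called lower in 43 of 43, but for Marco in 42 (within scan day 3). For D2 against B6 on the balanced diet, scan day 1 alone gave 0 calls and scan day 3 alone 5, with C1qa turned to 0.0898 (limma adjusted p 0.698). On the deficient diet, day 2 alone gave 4 and day 3 alone 6, and on the enriched diet day 2 alone gave 1. These within-day fits hold fewer mice. On the balanced diet 7 were called with the groups compared alone and 9 with 75th percentile scaling, without normalization, with normexp or without both doubted mice; on the enriched diet, 7 with slide as a block and 10 without normalization. The Folr2 call for deficient against balanced on the strain average became 0 calls without normalization between arrays, with normexp background correction, with no filter on dim probes, with slide as a block, within scan day 2 or 3, with the groups compared alone, and without both doubted mice. The cause was not tested. In D2 that comparison gave 0 calls with normexp and within scan day 1 or 2. Enriched against balanced in B6 gave 1 call with normexp. Of the comparisons added later, enriched against deficient in D2 gave 0 calls with normexp and within each scan day, and its strain difference 0 within scan days 2 and 3. In B6 it gave 1 call with 75th percentile scaling, normexp, without both doubted mice, and without B6 balanced mouse 1 or 4, B6 enriched mouse 2 or D2 enriched mouse 1 or 5. Leaving out 1 mouse at a time, 10 to 10 markers were called on the diet average, 9 to 10 on the balanced, 8 to 9 on the enriched and 9 to 10 on the deficient diet for D2 against B6. The same gave 0 to 1 for deficient against balanced on the strain average, 1 to 1 in D2, and 0 to 1 for enriched against balanced in B6. Without B6 balanced mouse 1, C1qa on the balanced diet was -0.24 (limma adjusted p 0.0713). The further macrophage genes counted 6 higher and 21 lower without both doubted mice, and 3 higher and 18 lower within scan day 3. The sinusoidal endothelial genes counted 5 lower within scan day 3.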

Other observations

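Chromosome neighbours of the markers, taken from the order of genes in the RefSeq table of GRCm38.p6 and chosen after the values were seen, did not all share the direction of the marker beside them. Beside Folr2, Inppl1 differed by -0.14 and Folr1, folate receptor alpha, by 0.05 between D2 and B6 livers (limma adjusted p 0.0159 and 0.838), against -4.74 for Folr2. Beside Clec4f, Cd207 was higher in D2 by 0.92, against -0.71 for Clec4f. Around Cd68, Mpdu1 differed by -0.49, Eif4a1 by -0.40, Sat2 by -2.42 and Tnfsf13 by -2.26, each further below 0 than the -0.32 of Cd68, while Senp3 (0.03, limma adjusted p 0.489) and Sox15 (0.34, limma adjusted p 0.238) did not pass. Near Marco, Insig2 stood at -1.55 and Steap3, an endosomal ferrireductase, at 0.59.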
